A study of Mus musculus with 20 samples.

Results

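The interferon response genes described here are 41 mouse genes that cells switch on when interferon reaches them. They were chosen by name as a gene module, and all 41 were found by symbol among the 49585 genes of the deposited count table. Bulk RNA sequencing of total RNA had measured them in 18 primary osteosarcomas, malignant tumours of bone, from mice of a mixed C57BL/6J and 129S/SvJae strain, and in 1 osteosarcoma cell line. The tumours came from 6 p53R172H/+, 3 p53R245W/+ and 5 p53R270H/+ mice, which each carry a missense allele of the tumour suppressor gene Trp53, and from 4 p53+/- mice (below R172H, R245W, R270H and p53 het). The line, number 14, is labelled p53R245/O and was represented by 1 library with siRNA against p53 and 1 control library, and the control is labelled as a heterozygous mutant with loss of heterozygosity. Loss of the remaining wild-type allele in the tumours, the sex of the mice and the site of each tumour are not in the labels, and the line is a single line with no replicate. The series asks whether the 3 hotspot mutants differ in what they do in tumours. Here that question is put to the interferon response genes, by setting each mutant against p53 het and the mutants against each other.

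Type I interferons (alpha and beta) bind a receptor made of Ifnar1 and Ifnar2, whose kinases activate transcription factors, among them Stat2. Stat2 works in a complex with Irf9 that binds the interferon-stimulated response element in promoters, while interferon-gamma acts through the gamma-activated sequence. Cells make type I interferon when sensors such as Ddx58 (RIG-I), Ifih1 (MDA5) or Cgas meet foreign or misplaced RNA or DNA, so the genes below read out both infection and nucleic acid within the cell. In tumours, cancer cells as well as macrophages, T cells and other cells express them.

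Total counts were 20.1 to 29.2 M (megacounts) per tumour library and 73.4 M (siRNA) and 64.1 M (control) in the line, and a count of 3, taken as the floor, equals 0.103 to 0.149 CPM (counts per M counts) in the tumours. Each member had between 37 and 8781 counts in every tumour, so all 41 passed the low-count filter. Levels in tumours are CPM scaled by TMM, a factor per library that evens out composition. Osteoblast markers were high throughout: Runx2, Sp7, Alpl, Bglap, Ibsp, Col1a1, Col1a2 and Dmp1 together took 31027 to 145376 CPM in every tumour. Macrophage markers (10 genes) summed to 875 to 2389 CPM over the tumours, against 27.01 CPM (siRNA) and 26.8 CPM (control) in the line. T and NK cell markers (13 genes) summed to 4.04 to 86.4 CPM over the tumours, against 8.15 CPM (siRNA) and 9.27 CPM (control) in the line. The T and NK sums of R245W 2 (4.04 CPM), R270H 3 (7.77 CPM) and R270H 4 (7.87 CPM) were thus no higher than in the line. Values of the line are CPM without TMM scaling. In bulk RNA, fewer cells of a type and less RNA per cell cannot be told apart.

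Promoter letters are shown for 6 members picked among those with a match, because they carry the elements through which interferon acts. They are RefSeq sequence of build GRCm38.p6, 5′ to 3′ on the strand of the gene, and capitals mark matches to GAAANNGAAA on either strand, the core of the response element, or, for Irf1, to TTCNNNGAA, the core of the gamma-activated sequence. In Isg15 and in Bst2 neighbouring matches overlap each other and form 1 run in each gene. Isg15 (chr4:156200835-156200924, minus strand), Bst2 (chr8:71537547-71537636, minus strand), Ifit1 (chr19:34640764-34640853, plus strand), Ifit3 (chr19:34583367-34583456, plus strand), Gbp2 (chr3:142620564-142620653, plus strand) and Irf1 (chr11:53769884-53769972, plus strand) read as follows.
Isg15: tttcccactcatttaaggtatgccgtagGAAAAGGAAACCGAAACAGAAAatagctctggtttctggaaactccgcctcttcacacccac
Bst2: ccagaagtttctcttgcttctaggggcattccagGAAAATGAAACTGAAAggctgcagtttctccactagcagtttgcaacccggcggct
Ifit1: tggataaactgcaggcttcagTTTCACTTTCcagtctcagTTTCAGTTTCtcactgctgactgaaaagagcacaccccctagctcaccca
Ifit3: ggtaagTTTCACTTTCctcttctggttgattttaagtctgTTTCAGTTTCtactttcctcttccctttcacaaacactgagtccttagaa
Gbp2: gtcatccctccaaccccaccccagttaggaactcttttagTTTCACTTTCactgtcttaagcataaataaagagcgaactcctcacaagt
Irf1: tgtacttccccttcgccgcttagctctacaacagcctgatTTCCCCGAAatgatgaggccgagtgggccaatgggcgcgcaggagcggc

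Of the 41 members, 31 had a promoter window in the table used, from 250 bases before to 50 after the start. The response element core was present in 18 of these 31 members (58.1%). Counted by window, it was present in 18 of their 35 windows (51.4%), against 3.44% of all 32851 windows. The gamma-activated core was present in 7 (22.6%), against 8.30% of all windows, and 4 members held both (Oas1a, Bst2, Ifitm3 and Igtp). Of members named often below, Slfn2 had a window with neither core, and Zbp1 and Ifi27 had no window. The stretch printed for Ifit3 recurs in the promoter of its neighbour Ifit3b, with 90 of 90 bases identical. The genes themselves lie at chr4:156199424-156200818 (Isg15), chr8:71534255-71537456 (Bst2), chr19:34550694-34650009 (the cluster from Ifit2 through Ifit3 and Ifit3b to Ifit1), chr3:142620602-142638008 (Gbp2) and chr11:53770014-53778374 (Irf1) in the GENCODE annotation of GRCm38. A match describes the letters only and says nothing of which factor binds in these tumours.

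The members tended to be high or low in the same tumours. The tumour R172H 3 was the highest of all 18 for 34 of the 41 members, and p53 het 2 was the highest for 4 and the second highest for 29. Over all 20616 genes tested, R172H 3 was the highest tumour for 3.64% and p53 het 2 for 6.44%. At the other end, R245W 2 was the lowest tumour for 11 members (10.3% of all genes), R172H 5 for 10 (6.37%) and R172H 2 for 9 (6.08%). On a log2 CPM scale centred on the mean of each gene, the median over the members was 1.88 in R172H 3 and 1.43 in p53 het 2, followed by R270H 1 (0.78), R270H 5 (0.73) and R172H 1 (0.49). The lowest medians were -1.10 in R172H 5, -0.99 in R245W 2, -0.91 in R172H 4 and -0.90 in R172H 6. R172H tumours thus stood at both ends of the range.

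**Figure D1:**
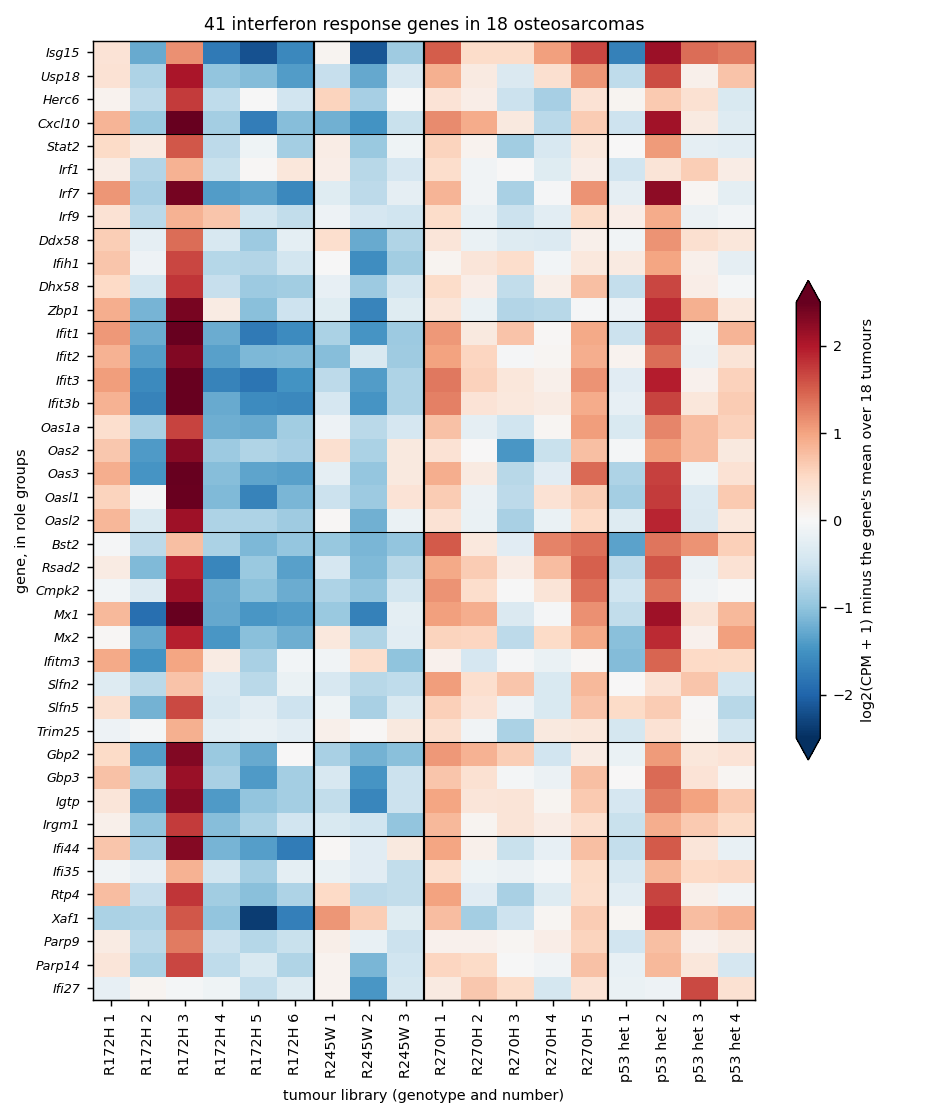
Heat map of the 41 interferon response genes (down the page, in role groups) in 18 tumour libraries (across, by genotype), coloured by log2(CPM + 1) minus the mean of the gene over the tumours and capped at 2.5 either way. The columns R172H 3 and p53 het 2 are red for most genes, and R172H 2, 4, 5 and 6 and R245W 2 are mostly blue.

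By genotype, these tumour medians averaged -0.23 ± 1.18 in R172H, -0.55 ± 0.42 in R245W, 0.31 ± 0.43 in R270H and 0.41 ± 0.76 in p53 het tumours (SD, n = 6, 3, 5 and 4). Every genotype overlapped p53 het on this scale, and the R172H spread was the widest. For single members the log2 CPM spread within genotypes had a median SD of 0.955 (0.420 to 1.39), against 0.506 over all genes tested and 0.378 over the 9089 genes of like mean level. All 41 members varied more within genotypes than the median gene of like level. The highest tumour exceeded the lowest by 3.09 to 40.95 times, with a median of 12.0 times.

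Summed cell type markers were ranked over the same tumours. R172H 3 ranked 2 of 18 for macrophage markers (2325 CPM), 6 for T and NK cell markers (43.5 CPM) and 1 for dendritic cell and endothelial markers (739 CPM for the endothelial sum). The other high tumour, p53 het 2, ranked 3 for macrophage markers (2291 CPM), 9 for T and NK cell markers (34.9 CPM), 17 for dendritic cell markers and 2 for endothelial markers (636 CPM). R172H 4 had the most T and NK marker RNA (86.4 CPM) and R172H 6 the most macrophage marker RNA (2389 CPM), and the interferon medians of both were among the 4 lowest. The part of these cells in the pattern was not tested.

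**Figure D2:**
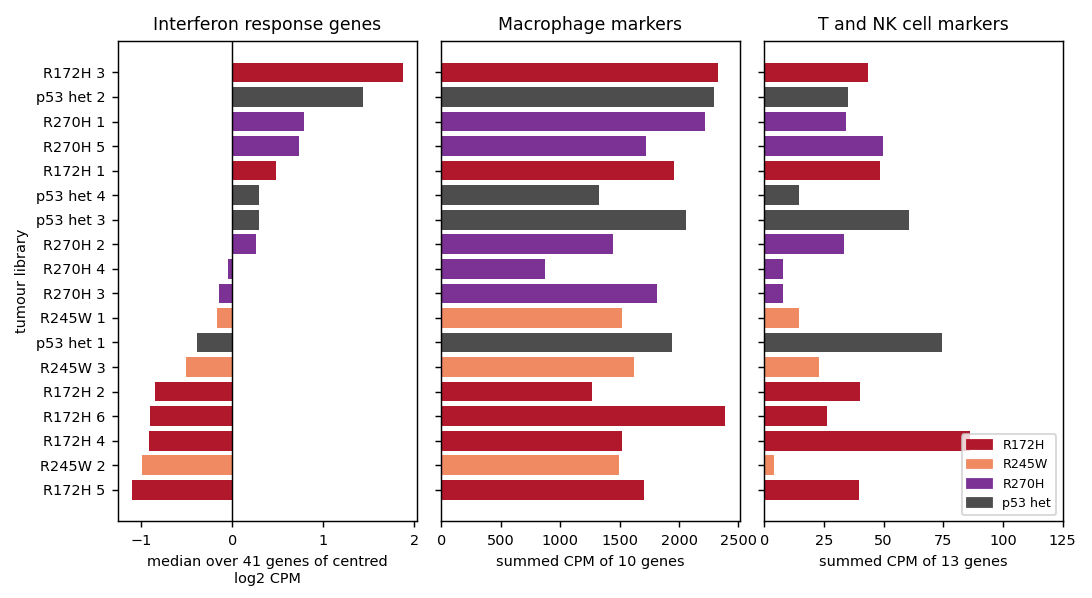
Tumour libraries ordered down the page by the median of the 41 genes (left, centred log2 CPM), beside the summed CPM of 10 macrophage markers (middle) and 13 T and NK cell markers (right), with bars coloured by genotype. R172H 3 (1.88) and p53 het 2 (1.43) head the order, while the largest T and NK sum (86.4 CPM) belongs to R172H 4, near its foot.

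No member passed the test in any comparison of genotypes. In R172H against p53 het 0 of 41 were called, where 0.0776% of all genes were. In R245W against p53 het 0 of 41 were called, against 0.0728% of all genes, and in R270H against p53 het 0 of 41, against 0%. The test used edgeR's quasi-likelihood model over the 18 tumours, with Benjamini-Hochberg adjustment over all 20616 genes and a threshold of 0.05. DESeq2 and limma voom also called no member in these 3 comparisons, which share the p53 het tumours and are therefore given side by side.

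What the folds had in common was direction. Of the 41 members 32 had a log2 fold below 0 in R172H (51.7% of all genes), 40 in R245W (52.7%) and 32 in R270H (51.3%), each against p53 het. The median log2 fold of the members was -0.22 in R172H, against -0.018 over all genes. It was -1.09 in R245W, against -0.036 over all genes, and -0.20 in R270H, against -0.014 over all genes. R245W had the lowest of the 4 genotype means for 37 of the 41 members, and p53 het the highest for 27. The shares of all genes with the same order are not given here, so how unusual these counts are cannot be told. This order is of means, and the R172H means include the high tumour R172H 3. On the centred log2 scale above, the median of the tumours was lower in R172H (-0.87) than in R245W (-0.50).

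These counts leaned on the high tumours. Without p53 het 2, the members below 0 numbered 11 in R172H (median 0.30), 39 in R245W (median -0.60) and 11 in R270H (median 0.26). Without R172H 3, all 41 were below 0 in R172H, with a median of -1.07, and 26 had an unadjusted p under 0.05 and were lower (6.26% of all genes), though none passed adjustment. Against p53 het, the median of R245W stayed below 0 in both cases, while those of R172H and R270H changed sign without p53 het 2.

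**Figure D3:**
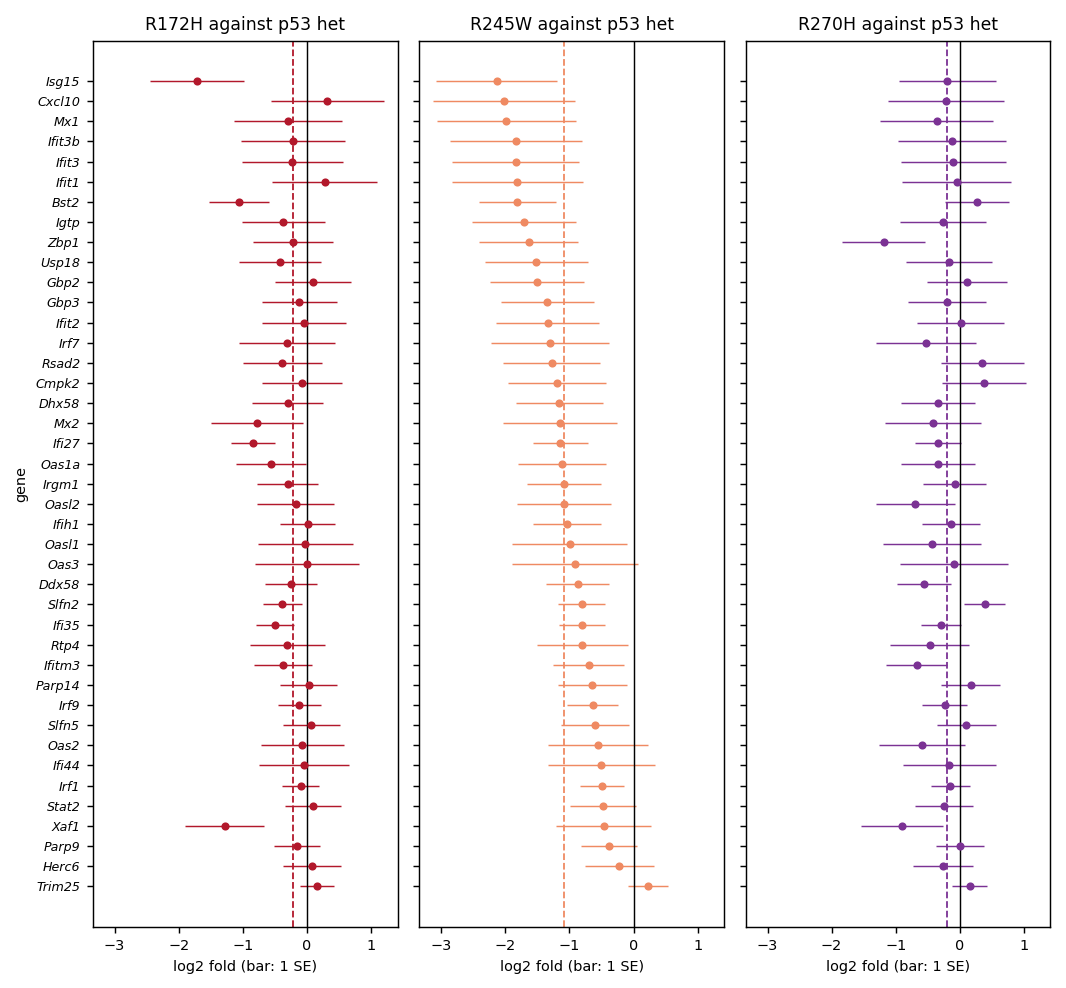
Log2 fold of each of the 41 genes in R172H, R245W and R270H tumours against p53 het (points, with bars of 1 standard error), ordered by the R245W fold. Dashed lines mark the medians of -0.22, -1.09 and -0.20, and only Trim25 lies above 0 in the R245W panel.

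At an unadjusted p under 0.05, 3 members were lower in R172H than in p53 het (Isg15, Bst2 and Ifi27; 6.9% of all genes were), 6 in R245W (Zbp1, Isg15, Bst2, Slfn2, Ifi35 and Ifi27; 6.66% of all genes) and 0 in R270H (6.25%). The R245W count depended on the fit: it was 16 with DESeq2 (7.99% of all genes), 20 with only the groups compared (4.17%) and 23 without R172H 3 (6.47%). It was 10 without p53 het 1 (7.74%) and 2 without p53 het 2 (7.28%) or R245W 3 (4.87%). Without p53 het 3 (5.32%) or R245W 2 (6.02%) it was 1, and with limma voom 2 (5.78%). In the title settings described below it was 2 with p53 het tumours of the same kind of title (5.19%). With the kind of title as a term it was 3 (4.93%). The R172H count was 26 without R172H 3 (6.26%), 5 without p53 het 1 (8.58%) and 0 without p53 het 3 (5.35%). It was 1 without p53 het 2 (7.68%) or R172H 2, 4, 5 or 6 (5.97% to 7.91%). In both title settings it was 0 (3.52% and 3.36%), and with limma voom 1 (5.65%). None was higher in R172H (5.36% of all genes were), R245W (5.84%) or R270H (5.21%). In R245W, 9 members did not overlap p53 het at all, with every R245W tumour below every p53 het tumour, where 3.98% of all genes did so and none was higher without overlap (4.8% of all genes). They were Zbp1, Gbp2, Gbp3, Igtp, Cxcl10, Ifit1, Ifit2, Ifit3 and Ifit3b. No member separated from p53 het in R172H (0.902% of all genes were lower and 1.13% higher without overlap) or in R270H (1.47% lower and 1.59% higher).

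Among the sensors of foreign nucleic acid, Zbp1, which binds left-handed double helices and can start cell death, showed the widest gap. Zbp1 ran from 7.54 to 98.5 CPM in R172H tumours (median 16.7) and stood at 14.6, 5.12 and 14.5 CPM in R245W tumours. It had 22.6, 16.1, 10.6, 10.9 and 17.8 CPM in R270H tumours, against 16.5, 68.7, 34.7 and 21.9 CPM in p53 het tumours. All 3 R245W values were under the lowest p53 het value, while R172H and R270H overlapped p53 het. The log2 fold was -1.64 ± 0.77 in R245W (SE; edgeR, adjusted p = 0.399) and -1.19 ± 0.65 in R270H (0.507), so neither passed.

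Ddx58, which detects RNA with a triphosphate end, had 41.3 to 209 CPM in R172H tumours (median 67.3) and 105, 32.3 and 46.5 CPM in R245W tumours. It had 97.7, 70.3, 63.2, 62.4 and 86.4 CPM in R270H tumours, against 74.4, 173, 104 and 96.7 CPM in p53 het tumours. R245W 1 lay inside the p53 het range and the other R245W tumours below it. Ifih1, which detects long double-stranded RNA, had 42.2 to 227 CPM in R172H tumours (median 58.0) and 70.2, 23.5 and 38.0 CPM in R245W tumours. It had 74.1, 87.8, 96.1, 66.9 and 84.8 CPM in R270H tumours, against 82.5, 141, 77.0 and 60.0 CPM in p53 het tumours. R270H lay wholly inside the p53 het range for Ifih1, and the genotypes overlapped. The fourth sensor, Dhx58 (LGP2), completes a group in which 3 of 4 members were below 0 in R172H, 4 of 4 in R245W and 4 of 4 in R270H.

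The transcription factors had the smallest median R245W fold of the 7 role groups, -0.57. Irf9, a DNA-binding partner of Stat2, had 27.1 to 81.7 CPM in R172H tumours (median 44.2) and 40.5, 32.9 and 30.9 CPM in R245W tumours. It had 60.9, 38.5, 30.1, 36.7 and 62.1 CPM in R270H tumours, against 49.6, 84.5, 39.8 and 42.0 CPM in p53 het tumours. Irf9 overlapped among all genotypes. Irf1, a factor induced by interferon-gamma through the element printed above, had 36.1 to 111 CPM in R172H tumours (median 65.0) and 67.4, 36.9 and 44.7 CPM in R245W tumours. It had 82.1, 56.4, 60.3, 49.0 and 68.0 CPM in R270H tumours, against 43.1, 75.7, 93.1 and 68.5 CPM in p53 het tumours. Irf1 overlapped likewise. The 4 factors, with Stat2 and Irf7, had R245W folds between -1.30 and -0.47.

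Isg15, a ubiquitin-like protein that is joined to other proteins and also secreted, had the lowest R245W fold of the module. Isg15 had 2.54 to 34.7 CPM in R172H tumours (median 5.03) and 15.9, 2.68 and 7.74 CPM in R245W tumours. It had 44.7, 21.2, 21.1, 31.6 and 49.9 CPM in R270H tumours, against 4.02, 70.1, 41.7 and 38.5 CPM in p53 het tumours. For Isg15, 3 p53 het tumours and all R270H tumours were above every R245W tumour, while p53 het 1 was as low as the low R172H tumours. The log2 fold was -1.72 ± 0.73 in R172H (edgeR, adjusted p = 0.362), -2.13 ± 0.94 in R245W (0.363) and -0.20 ± 0.76 in R270H, none past the threshold.

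Cxcl10, a chemokine that draws activated T cells, had 2.84 to 116 CPM in R172H tumours (median 5.85) and 4.54, 3.53 and 7.62 CPM in R245W tumours. It had 27.7, 23.1, 14.1, 6.95 and 18.7 CPM in R270H tumours, against 7.91, 53.6, 13.9 and 9.17 CPM in p53 het tumours. The R245W tumours lay just under the lowest p53 het tumour, and 1 tumour of R172H and 1 of p53 het stood far above the rest of their group. Usp18, which removes Isg15 from proteins, and Herc6, the ligase that attaches it in the mouse, complete this group, in which all 4 members were below 0 in R245W. Cxcl10 overlaps Art3 on the opposite strand, and Irf1, Irf7, Slfn2, Slfn5, Gbp2 and Ifi35 also overlap gene models on the opposite strand. No source states whether counting used the strand, so reads of such pairs cannot be told apart. On the same strand, Igtp overlaps Irgm2 and shares 7.80% of its 75-base words with it. Irf9 overlaps Rnf31 on the same strand and shares 0.854%.

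The IFIT proteins bind viral RNA and the OAS enzymes make the messenger that activates an RNA-cutting enzyme, and 9 members belong to these families. Ifit1 had 7.83 to 247 CPM in R172H tumours (median 11.7) and 16.5, 9.87 and 15.0 CPM in R245W tumours. It had 63.2, 34.6, 48.5, 29.8 and 57.0 CPM in R270H tumours, against 19.6, 93.7, 27 and 53 CPM in p53 het tumours. No R245W value reached the lowest R270H or p53 het value, and the R172H tumours held both the highest and the lowest values of all. Ifit3 had 7.01 to 169 CPM in R172H tumours (median 8.80) and 17.0, 9.87 and 15.8 CPM in R245W tumours. It had 69.7, 41.5, 33.4, 29.98 and 60.9 CPM in R270H tumours, against 22.5, 110, 29.5 and 41.3 CPM in p53 het tumours. For Ifit3 too, every R245W value was under the lowest R270H and p53 het value. Ifit1, Ifit2, Ifit3 and Ifit3b lie side by side on chromosome 19, and all 4 separated R245W from p53 het and from R270H. Ifit3 shares 41.1% of its 75-base words with Ifit3b, and Oas1a shares 47.6% with Oas1g, so the split of reads within these pairs is uncertain. For the 5 OAS members the R245W and p53 het tumours overlapped.

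Bst2 (tetherin), which holds budding virus particles at the cell surface, came nearest to the threshold. Bst2 had 13.6 to 52.5 CPM in R172H tumours (median 18.2) and 15.4, 13.4 and 15.1 CPM in R245W tumours. It had 91.2, 37.3, 25.05, 74.1 and 81.6 CPM in R270H tumours, against 11.5, 79.6, 68.0 and 46.8 CPM in p53 het tumours. All R245W values were below all R270H values, and p53 het 1 was the lowest of the 18. The log2 fold against p53 het was -1.06 ± 0.47 in R172H (edgeR, adjusted p = 0.377), -1.81 ± 0.60 in R245W (0.243) and 0.27 ± 0.49 in R270H.

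Slfn2, a member of the Schlafen family with a role in T cell quiescence in the mouse, had 22.5 to 60.5 CPM in R172H tumours (median 28.9) and 27.7, 22.3 and 23.2 CPM in R245W tumours. It had 76.9, 49.3, 59.8, 27.96 and 64.7 CPM in R270H tumours, against 37.1, 47.6, 59.6 and 26.5 CPM in p53 het tumours. R245W lay below every R270H tumour but overlapped p53 het through p53 het 4, with a log2 fold of -0.81 ± 0.37 (edgeR, adjusted p = 0.376). Ifitm3, which blocks virus fusion, had 38.2 to 218 CPM in R172H tumours (median 115) and 102, 148 and 53.7 CPM in R245W tumours. It had 118, 81.6, 107, 97.5 and 111 CPM in R270H tumours, against 51.2, 301, 154.5 and 152 CPM in p53 het tumours. All mutants overlapped p53 het, and the log2 fold in R270H was -0.68 ± 0.48 with p53 het as the base. Trim25, a ligase that acts on Ddx58, was the 1 member above 0 in R245W, at a log2 fold of 0.22. It had 59.0 to 132 CPM in R172H tumours (median 63.2) and 78.0, 72.7 and 84.1 CPM in R245W tumours. R270H tumours had 94.4, 66.7, 40.8, 84.1 and 86.3 CPM, against 51.9, 91.9, 73.1 and 51.3 CPM in p53 het tumours, and the groups overlapped. With Slfn5, Rsad2, its neighbour Cmpk2, and Mx1 and Mx2, of a family of GTPases that can trap incoming viruses, this group of 9 effectors had R245W folds from -1.98 to 0.22. These RNA counts do not show whether the mice make working Mx1 or Mx2 protein. Mx2 is annotated as a polymorphic pseudogene in the mouse.

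The GTPases Gbp2, Gbp3, Igtp and Irgm1, which are induced by interferon-gamma and attack vacuoles that hold microbes, had a median R245W fold of -1.43. Gbp2 had 14.4 to 198 CPM in R172H tumours (median 29.6) and 21.8, 16.5 and 18.3 CPM in R245W tumours. It had 84.2, 71.8, 60.4, 27.6 and 44.8 CPM in R270H tumours, against 34.5, 83.0, 47.6 and 49.3 CPM in p53 het tumours. R245W was below every R270H and every p53 het tumour. Igtp had 5.73 to 86.3 CPM in R172H tumours (median 8.53) and 10.7, 4.84 and 11.5 CPM in R245W tumours. It had 34.5, 21.3, 21.5, 17.9 and 27.3 CPM in R270H tumours, against 12.4, 42.8, 35.0 and 27.4 CPM in p53 het tumours. Igtp gave the same separation, by a small margin against p53 het 1.

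Of the other induced genes, Ifi27, a small hydrophobic protein, had 21.3 to 34.2 CPM in R172H tumours (median 29.2) and 34.5, 11.3 and 23.9 CPM in R245W tumours. It had 38.3, 52.3, 45.4, 23.7 and 42.4 CPM in R270H tumours, against 28.9, 29.8, 104 and 42.5 CPM in p53 het tumours. Ifi27 differed from most members in that p53 het 3, not p53 het 2 or R172H 3, was its highest tumour. Its log2 fold was -0.85 ± 0.34 in R172H (edgeR, adjusted p = 0.339) and -1.14 ± 0.42 in R245W (0.295). Ifi35, a leucine zipper protein, had 10.6 to 37.0 CPM in R172H tumours (median 16.9) and 17.6, 16.1 and 12.7 CPM in R245W tumours. It had 26.7, 18.2, 17.8, 19.1 and 27.8 CPM in R270H tumours, against 14.9, 35.8, 28.6 and 28.7 CPM in p53 het tumours. The R245W and p53 het tumours overlapped through p53 het 1, and the fold was -0.80 ± 0.36 (0.372). Xaf1, an antagonist of the apoptosis inhibitor XIAP, had 9.64 to 162 CPM in R172H tumours (median 29.1) and 118, 83.9 and 43.9 CPM in R245W tumours. It had 93.0, 29.7, 37.5, 56.3 and 85.4 CPM in R270H tumours, against 55.9, 201.7, 93.6 and 100 CPM in p53 het tumours. Of the R172H tumours 5 were below every p53 het tumour and the remaining one was R172H 3, with a fold of -1.29 ± 0.62 in R172H (0.411) and -0.90 ± 0.65 in R270H. Ifi44, the chaperone-like Rtp4 and the ADP-ribosyltransferases Parp9 and Parp14 complete this group of 7, whose R245W folds ran from -1.14 to -0.38.

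**Figure D4:**
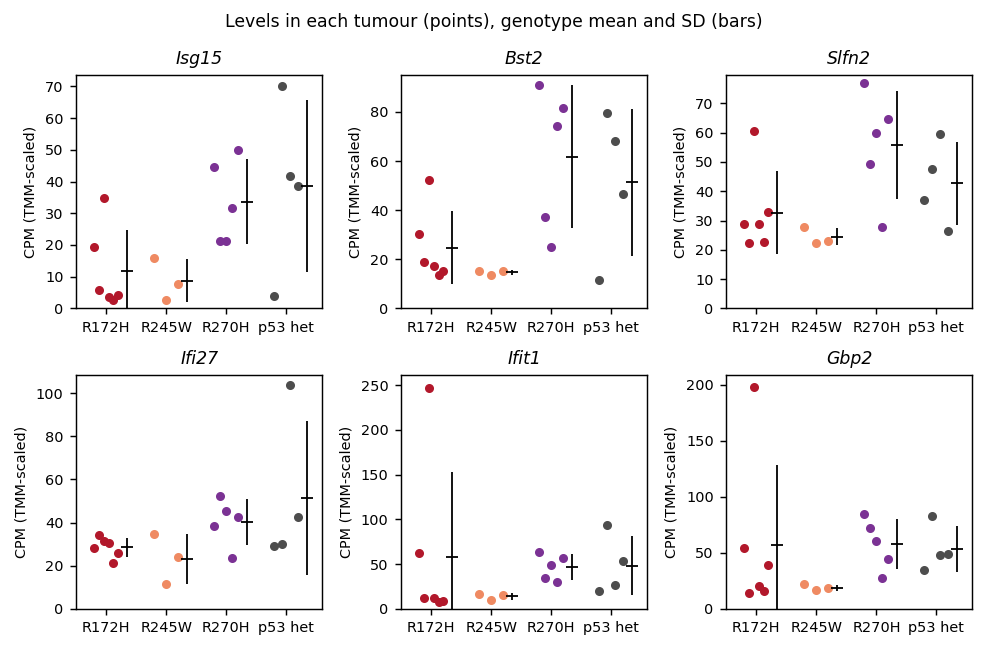
Levels of 6 of the genes (TMM-scaled CPM, linear axes from 0) in each tumour, with points grouped by genotype and a black tick and bar for the mean and SD, cut off at 0. In R245W the tumours lie close together and low (Bst2 13.4 to 15.4 CPM), while 1 R172H tumour stands far above its group for Ifit1 (247 CPM) and Gbp2 (198 CPM).

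The mutants were then set against each other. In R245W against R270H, 0 of 41 members were called (1.24% of all genes), 37 were below 0 (51.5%) with a median log2 fold of -0.80, and 15 did not overlap, all lower in R245W (7.12% of all genes were lower without overlap and 6.34% higher). Those 15 were Gbp2, Gbp3, Igtp, Irgm1, Isg15, Usp18, Bst2, Slfn2, Rsad2, Cmpk2, Ifi35, Ifit1, Ifit2, Ifit3 and Ifit3b. At an unadjusted p under 0.05, 5 were lower (9.17% of all genes) and none higher (9.22%). The 5 became 9 with DESeq2 (10.2% of all genes), 20 with only the groups compared (9.26%), 18 without R172H 3 (8.76%) and 2 to 6 without any other single library (2 without R245W 2 or 3 or R270H 1, 3 without p53 het 4, R172H 1, R270H 2 or R270H 5). Bst2 had a log2 fold of -2.08 ± 0.59 (edgeR, adjusted p = 0.0840) and Slfn2 -1.19 ± 0.36 (0.0998). Rsad2 (viperin), an enzyme that makes a chain terminator of viral RNA synthesis, had 30.4, 18.6 and 25.2 CPM in R245W tumours, against 80.3, 64.1, 46.7, 71.2 and 118 CPM in R270H tumours. The Rsad2 groups stood apart, at a log2 fold of -1.62 ± 0.75 (0.258), and Isg15 (-1.94 ± 0.91, 0.264) and Gbp2 (-1.61 ± 0.72, 0.240) likewise missed the threshold. DESeq2 called Bst2 (adjusted p = 0.00774) and Slfn2 (0.0305), and limma voom called Bst2 (0.0467). Fitted to the R245W and R270H tumours alone, edgeR called Ifit1 (adjusted p = 0.0368). The shares of all genes called in those settings are not given here, so these calls are not read as a result about the members.

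In R270H against R172H, 0 of 41 members were called (5.28% of all genes) and 20 were below 0 (51.1%), with a median log2 fold of 0.000285, which lay between -0.16 and 0.82 over the alternatives. At an unadjusted p under 0.05, Isg15 (1.52 ± 0.70), Bst2 (1.32 ± 0.45) and Slfn2 (0.77 ± 0.28) were higher in R270H (12.6% of all genes) and none lower (10.6%). The 3 became 1 without R270H 1. No member separated the groups (3.1% of all genes were lower and 4.58% higher without overlap). DESeq2 called Bst2 (adjusted p = 0.0396). Without R172H 3, only 2 members were below 0, the median was 0.82, and 20 were higher at an unadjusted p under 0.05 (11.2% of all genes). In that fit edgeR called Slfn2 (adjusted p = 0.0451) and Rsad2 (0.0466). For these DESeq2 and edgeR calls too, the shares of all genes called are not given here. The titles of all R172H and R245W tumours and of p53 het 1 and 2 carry a serial number and those of R270H and p53 het 3 and 4 do not. What this marks is not given, and no R270H tumour shares its kind of title with another mutant, so only the p53 het tumours link the kinds. With only p53 het tumours of the same kind of title, the members below 0 against p53 het were 38 in R172H (median -0.41), 40 in R245W (median -1.34) and 15 in R270H (median 0.12). A fit with the kind of title as a term, chosen after seeing the data, called no member in any comparison. In it 7 members were below 0 in R270H against R172H, with a median of 0.60 and none with an unadjusted p under 0.05 in either direction. In R245W against R270H 38 were below 0, with a median of -1.31, and again none had an unadjusted p under 0.05. Bst2 then had a log2 fold of -1.74 in R245W against R270H, and its adjusted p in that comparison ran from 0.00774 with DESeq2 to 0.566 with this term over the alternatives.

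In R245W against R172H, 0 of 41 were called (0.155% of all genes) and 39 were below 0 (50.3%), with a median log2 fold of -0.75. Only Gbp2 (-1.59 ± 0.70) and Cxcl10 (-2.33 ± 1.08) had an unadjusted p under 0.05, both lower in R245W (5.43% of all genes), with none higher (5.32%), and no member separated the groups (2.74% of all genes were lower and 2.86% higher without overlap). That count of 2 ran from 0 to 6 over the alternatives (0 without R172H 3, R245W 2 or R245W 3, and 6 without R172H 5). Without R172H 3 the members below 0 were 26 and the median was -0.10. For a difference among any of the 4 genotypes, 0 of 41 members were called (2.86% of all genes) and 4 (Isg15, Bst2, Slfn2 and Ifi27) had an unadjusted p under 0.05 (22.1%). The lowest edgeR adjusted p was 0.0800 for Bst2, which DESeq2 called (0.00927). The share of all genes that DESeq2 called is not given here.

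Marker RNA of other cell types was set beside these values. The T and NK cell markers summed to 26.2 to 86.4 CPM in R172H, 4.04 to 22.8 CPM in R245W, 7.77 to 49.6 CPM in R270H and 14.6 to 74.7 CPM in p53 het tumours. All 13 were below 0 in R245W against p53 het, with a median log2 fold of -1.63, and none was called. Macrophage markers summed to 1268 to 2389 CPM in R172H, 1498 to 1618 CPM in R245W, 875 to 2217 CPM in R270H and 1324 to 2291 CPM in p53 het tumours, and 9 of 10 were below 0 in R245W against p53 het (median -0.46), none called. Each marker gene was detected in at least 1 tumour of every genotype. Of the skeletal muscle markers 6 of 6 were below 0 in R245W against p53 het (median -1.52), and of the neutrophil markers 2 of 7 (median 1.41), none called. The muscle sums were 76.1 to 1172 CPM in R245W (median 689) and 264 to 5921 CPM in p53 het tumours (median 451). The 5921 CPM belonged to p53 het 4 alone, and by these medians R245W was the higher group. In R245W against R270H the T and NK cell markers were below 0 for 12 of 13 (median -1.24), none called. In R270H against R172H none of 7 neutrophil markers was below 0 (median 3.84) and 3 were called, as was 1 of 10 macrophage markers. The neutrophil sums were 21.0 to 1183 CPM in R270H (median 78.5) and 8.54 to 45.5 CPM in R172H tumours (median 18.2). R270H 5 held the 1183 CPM, and R270H 2 came next in its group with 123 CPM. The part of these cells in the values of the interferon response genes was not tested.

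The rest of the pathway gave no call either. Of 16 interferon and receptor genes 7 were tested. Ifnb1 (interferon-beta) had 0 to 4 counts and Ifng (interferon-gamma) 0 to 7 counts per tumour, and Ifna1 had 0 counts in every tumour, against a floor of 3 counts. The receptor chain Ifnar1 averaged 128 ± 12.9 CPM in R172H, 127 ± 20.4 CPM in R245W, 99.4 ± 10.6 CPM in R270H and 120 ± 23.3 CPM in p53 het tumours (SD, n = 6, 3, 5 and 4). Ifnar2, its partner, averaged 46.5 ± 6.55 CPM in R172H, 39.1 ± 5.96 CPM in R245W, 35.1 ± 5.09 CPM in R270H and 41.5 ± 9.32 CPM in p53 het tumours. Neither chain passed the test in any comparison.

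Among 10 genes of receptor signalling and its inhibitors, 4 were below 0 in R172H, 8 in R245W and 5 in R270H against p53 het, and none passed. Jak1, a kinase of the receptors, averaged 293 ± 65.1 CPM in R172H, 173 ± 33.8 CPM in R245W, 234 ± 41.7 CPM in R270H and 243 ± 53.1 CPM in p53 het tumours. Irf2, which competes with Irf1 at the response element, averaged 29.4 ± 9.54 CPM in R172H, 29.2 ± 8.18 CPM in R245W, 21.4 ± 2.80 CPM in R270H and 17.1 ± 3.57 CPM in p53 het tumours. Unlike most members, Irf2 thus had its lowest mean in p53 het. Its log2 fold against p53 het was 0.78 ± 0.24 in R172H (edgeR, adjusted p = 0.205) and 0.78 ± 0.27 in R245W (0.264).

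Of 13 tested genes of sensing and signalling to interferon, 5 were below 0 in R172H, 10 in R245W and 7 in R270H against p53 het, and none passed. Mavs, the mitochondrial adaptor of Ddx58 and Ifih1, averaged 47.3 ± 4.11 CPM in R172H, 52.8 ± 5.80 CPM in R245W, 36.9 ± 7.49 CPM in R270H and 46.6 ± 4.03 CPM in p53 het tumours. Samhd1, which breaks down the building blocks of DNA, averaged 118 ± 32.7 CPM in R172H, 210.4 ± 62.9 CPM in R245W, 149 ± 69.4 CPM in R270H and 121 ± 17.9 CPM in p53 het tumours, with a log2 fold of 0.79 ± 0.33 in R245W against p53 het (edgeR, adjusted p = 0.339). Samhd1 thus had its highest mean in R245W. A further list of 32 interferon-stimulated genes outside the module had 18 below 0 in R172H (median -0.059), 27 in R245W (median -0.75) and 26 in R270H (median -0.18) against p53 het, and none passed. Epsti1 of that list averaged 21.1 ± 12.5 CPM in R172H, 7.56 ± 2.12 CPM in R245W, 21.6 ± 11.0 CPM in R270H and 23.6 ± 10.3 CPM in p53 het tumours, at a log2 fold of -1.64 ± 0.56 in R245W (0.256). Ifitm2 of that list averaged 87.1 ± 33.99 CPM in R172H, 79.9 ± 48.2 CPM in R245W, 34.8 ± 10.2 CPM in R270H and 76.4 ± 54.6 CPM in p53 het tumours. Of these 4 lists of neighbours in the pathway, 62 genes were tested, and against p53 het 3 (4.84%) had an unadjusted p under 0.05 in R172H, 6 (9.68%) in R245W and 3 (4.84%) in R270H. Over all genes tested the shares were 12.3%, 12.5% and 11.5%.

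In cell line 14 the siRNA library had 30.6 CPM of Trp53, against 94.9 CPM in the control library (2242 and 6082 counts), so the knocked-down gene went the way its label says. With 1 library each there is no replicate check and no test. Intervals below are exact 95% Poisson intervals of the count ratio and cover counting error only. Of the 41 members 37 had at least 10 CPM in 1 of the libraries, and Oas2, Oas3, Cmpk2 and Mx1 did not. Of the 37, 36 had a log2 ratio of siRNA over control, on CPM plus 1, below 0, where 54.4% of the 9398 genes of that level did, and 1 was above. The median ratio of the 37 was -0.52, against -0.018 for all 9398 genes. A ratio of -0.5 or lower was found for 21 of the 37, against 1.27% (119) of all genes, and a ratio of -1 or lower for 3, against 0.117% (11) of all genes. With CPM plus 5 these were 15 members (70 of all genes) at -0.5 or lower and 1 member (4 of all genes) at -1 or lower.

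Those 3 were Ifit3b, Slfn5 and Ifit3. Ifit3b had 9.50 CPM with siRNA, against 23.8 CPM in the control, a log2 ratio of -1.24 (interval -1.46 to -1.20 for the plain count ratio). Slfn5, another Schlafen protein, had 5.19 CPM with siRNA, against 13.2 CPM in the control, a ratio of -1.20 (-1.52 to -1.17). Ifit3 had 36.3 CPM with siRNA, against 84.2 CPM in the control, a ratio of -1.19 (-1.28 to -1.15). The ratios of Ifit3 and Ifit3b are not separate evidence, since the pair share sequence. Mx2 (19.7 CPM with siRNA, against 37.3 CPM in the control) and Ifit1 (58.7 CPM against 108 CPM) followed at -0.88 and -0.87.

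At the other end Ifitm3 was the 1 member above 0, with 558 CPM with siRNA, against 474 CPM in the control (0.23, interval 0.21 to 0.26). Ifi27 (126 CPM with siRNA, against 139 CPM in the control), Ifi35 (37.8 against 42.3 CPM), Irf7 (67.8 against 77.5 CPM) and Ifit2 (32.1 against 37.2 CPM) had the next highest ratios, at -0.14, -0.16, -0.19 and -0.21. Ifit2 thus lay nearer to 0 than its neighbours Ifit1, Ifit3 and Ifit3b. By role, the medians were -0.67 for the secreted and ubiquitin-like, -0.46 for the transcription factors, -0.54 for the sensors, -0.61 for the IFIT and OAS families, -0.67 for the other antiviral effectors, -0.44 for the GTPases and -0.48 for the remaining genes. The medians of all 7 role groups were below 0.

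**Figure D5:**
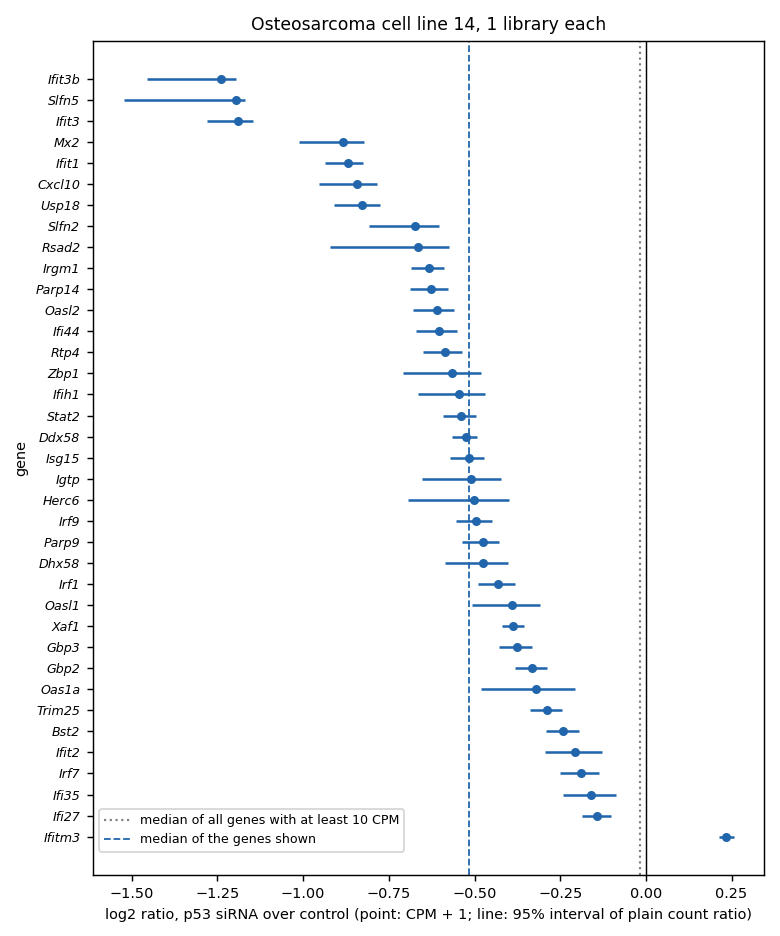
Log2 ratio of p53 siRNA over control in cell line 14 (points, CPM + 1; horizontal lines, 95% counting interval of the plain count ratio) for the 37 genes with at least 10 CPM in 1 library. All but Ifitm3 (0.23) lie below 0, the dashed line marks their median (-0.52) and the dotted line that of all 9398 genes (-0.018).

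The receptor chains Ifnar1 (106 CPM with siRNA, against 102 CPM in the control) and Ifnar2 (56.8 against 54.7 CPM) gave ratios of 0.049 and 0.054. Ifnb1 had 2 counts with siRNA and 6 in the control, and Ifng had 2 and 0 counts, all too few for a ratio. Of the 32 further interferon-stimulated genes 21 had at least 10 CPM, and 20 of these were below 0 (median -0.37). The line held few immune transcripts. T and NK cell markers summed to 8.15 CPM with siRNA and 9.27 CPM in the control, with 7 of 13 markers at 0 in both libraries (Cd3e, Cd3g, Cd2, Cd8b1, Nkg7, Klrb1c and Ncr1), and macrophage markers summed to 27.01 CPM with siRNA and 26.8 CPM in the control.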

How the data were processed

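RNA was isolated from frozen tumours with Trizol and column kits and libraries followed Illumina protocols, per the labels' protocols. The authors deposited raw counts per gene for 20 libraries. Reads were aligned to GRCm38 with STAR 2.6.0b and groups compared with DESeq2, per the submitters' processing notes. The counting program, its annotation, its strand setting and sequencing batches are not given in the sources used here. Of 49585 gene IDs 49326 matched a symbol. Sting1 of the sensing list was not matched and is not analysed here.

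Groups follow the labels, with R172H n = 6, R245W n = 3, R270H n = 5, p53 het n = 4 and 1 library per arm of the line. edgeR 4.0.16 in R 4.3.3 was used on the counts with TMM scaling, filterByExpr by genotype (minimum count 10, minimum total 15), 1 quasi-likelihood fit over 18 tumours with 14 residual degrees of freedom and 6 contrasts and a test of any difference, adjusted by Benjamini-Hochberg over 20616 genes. The standard error is the log2 fold divided by the square root of F. p-values measure only the spread between tumours. The scripts were tested on simulated data. With changes set in R172H against p53 het, the test called 22.4% of 2-fold, 62.7% of 4-fold and 83.3% of 8-fold changes. The changed genes were drawn at random from all genes kept by the filter. The members varied more within genotypes (median SD 0.955) than genes of like level (0.378), so these rates may not hold for them. Comparisons with the 3 R245W tumours were not simulated.

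The members, their role groups and the other lists were chosen with earlier results of these data known, so lists are described by counts and medians and not tested. Values are given for members with the 4 lowest p-values in each contrast with p53 het or the 2 lowest for any difference in a role group, for 5 genes at either end in the line, and for 2 genes of each further list with Ifnb1 and Ifng, apart from an item that is not reported here. Rsad2 and Trim25 were added after their values were seen. Line ratios are log2 of CPM plus 1 for genes with at least 10 CPM in 1 library, and intervals and floors cover counting error only. Alternatives were DESeq2 1.42.0, its size factors, no filter, limma 3.58.1 voom with quality weights, only the groups compared, p53 het libraries of the same kind of title, leaving out each of 18 libraries and, chosen after seeing the data, the kind of title as a term.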

Additional observations from a re-analysis of the deposited data

Results flagged for a closer look

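Of 51 groups of 4 to 6 tumours (17 named genes), 10 (19.6%) had 1 tumour far from the rest by Dixon's criterion at 95%. Chance gives about 5% for normally distributed values, but CPM on a linear scale were used, so the 5% may not hold here. Since the genes vary together, the 10 groups are not 10 separate events. R172H 3 stood far above the other R172H tumours for Xaf1 (162 CPM), Ifi35 (37.0 CPM), Zbp1 (98.5 CPM), Cxcl10 (116 CPM), Ifit1 (247 CPM), Ifit3 (169 CPM), Slfn2 (60.5 CPM), Gbp2 (198 CPM) and Igtp (86.3 CPM). Among p53 het tumours, p53 het 2 stood apart for Cxcl10 (53.6 CPM). Groups of 3, here R245W, were not examined in this way.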

How the results depend on the processing

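No paired analysis was possible because the labels number no tumours across genotypes. There were 25 alternatives for the tumours. Members called in R245W against R270H were 2 with DESeq2, 1 with limma voom, 1 with only the groups compared, and 0 to 1 when each library was left out (1, Bst2, without p53 het 1). In R270H against R172H DESeq2 called 1, and leaving out libraries gave 0 to 2 (1, Bst2, without p53 het 1, and 2 without R172H 3). For any genotype DESeq2 called 1, and leaving out libraries gave 0 to 1 (Bst2 without p53 het 1). The main fit called 1.24% of all genes in R245W against R270H, 5.28% in R270H against R172H and 2.86% for any genotype. Such shares are not given here for the alternatives, so calls of 1 or 2 members are not read as a result about the members. Members below 0 in R270H against p53 het were 21 with limma voom, 15 with p53 het libraries of the same kind of title, 15 with the kind of title as a term (chosen after seeing the data), and 11 to 35 with libraries left out (lowest without p53 het 2). They were 11 to 41 in R172H against p53 het, 39 to 40 in R245W against p53 het, 26 to 39 in R245W against R172H and 35 to 39 in R245W against R270H. In R270H against R172H they were 12 with limma voom, 7 with the kind of title as a term and 2 to 28 with libraries left out (lowest without R172H 3). The cause of these shifts was not tested beyond the library named. The line median was -0.53 with CPM plus 0.1, -0.47 with CPM plus 5 and -0.49 with TMM. Every member had at least 37 counts in every tumour, while Ifnb1, Ifna1 and Ifng were too shallow to compare.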
